A study of Homo sapiens with 54 samples.

Results

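AG09309 is a human fibroblast line, and its expression at 36 h with calcitriol, the hormonal form of vitamin D, was compared with that at 0 h without agent (2 arrays against 2). The 0 h arrays of AG09309 held transcripts of lymphoid cells, so the comparison was kept to probe sets that read lower in lymphoblastoid cells than in another fibroblast line. A probe set, the group of probes that reports 1 gene, was a member if its mean over the 8 untreated arrays of 4 lymphoblastoid lines (GM07019, GM07348, GM10854 and GM12878) lay below its mean over the 2 untreated arrays of the fibroblast line AG09319. The cell line field was used for GM10854, whose sample titles name another line. Of the 19436 probe sets tested, 7593 were members, and they stood for 7284 of 18394 genes. Members were thus chosen by measured 0 h levels in those 10 arrays, and the changes in AG09309 did not enter the choice. The last members inside the limit were ZFR, ZNF776 and WNT8A, whose AG09319 mean was higher by 4.4e-05, 0.00012 and 0.00021 log2 units. The first probe sets outside were those of NKAPD1, SPATA1 and WFDC11.

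Calcitriol enters cells and binds the vitamin D receptor, VDR, a nuclear receptor that pairs with a retinoid X receptor on DNA. The best known gene switched on in this way is CYP24A1, whose product breaks calcitriol down and so limits the signal. Fibroblasts build and remodel the collagen-rich matrix of connective tissue, answer to TGF-beta, and express VDR.

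The series used Affymetrix Gene 1.0 ST arrays for 9 human cell lines, each without agent at 0 h and with calcitriol at 8 h and 36 h, with 2 arrays per line and time and 54 in all. The 2 AG09309 groups compared here share everything the labels state except agent and time, so calcitriol and time in culture cannot be told apart. Untreated cultures at 8 h or 36 h were not analysed here, and no label used here states the dose. Each line comes from 1 source. Titles mark the 2 arrays of a group BR1 and BR2, which may stand for biological replicate. The labels used here do not state whether the 2 came from separate cultures. The p-values therefore reflect the spread among these arrays, which may be technical. The 2 AG09309 arrays correlated at 0.990 at 0 h, 0.985 at 8 h and 0.980 at 36 h, against a range of 0.930 to 0.990 over the 27 groups. The 3 lowest were the 8 h group of AG09319 (0.930), HepG2 hepatoma cells without agent (0.963) and K562 leukaemia cells at the late time (0.969). In each, the array less like the others of its line was set aside in an alternative fit. The number 3 was set by rule. Detection calls were not used, which makes changes from low levels inexact as folds, and precision is limited by the small number of arrays.

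The 15 fibroblast markers were all members, and in AG09309 their summed linear level was 14937 to 16201 at 0 h, 18226 to 21174 at 8 h and 17793 to 19648 at 36 h. In the lymphoblastoid arrays that sum was 609 to 738. The 22 measured markers of B cells and other lymphoid cells, none a member, summed to 3287 to 3496 at 0 h, 671 to 794 at 8 h and 625 to 688 at 36 h. Untreated AG09319 read 619 to 798 for the same lymphoid sum, and the lymphoblastoid arrays read 11018 to 13905. MS4A1, the B cell antigen CD20, read 8.15 and 8.07 on the log2 scale at 0 h, 3.38 and 3.29 at 8 h, and 3.10 and 2.85 at 36 h. Lymphoid markers were thus high in both 0 h arrays of AG09309 and near those of AG09319 in both later groups. Between 36 h and 0 h 18 of the 22 lymphoid markers fell and 0 rose, while between 36 h and 8 h 1 fell. Of 23 markers of T cells, myeloid, epithelial, endothelial and melanocytic cells, 0 passed limma in either comparison, with 2 and 1 at an unadjusted p under 0.05 and 0 and 0 passing when limma was run on the 6 AG09309 arrays alone. In bulk samples fewer cells of a type and less RNA per cell cannot be told apart.

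**Figure D1:**
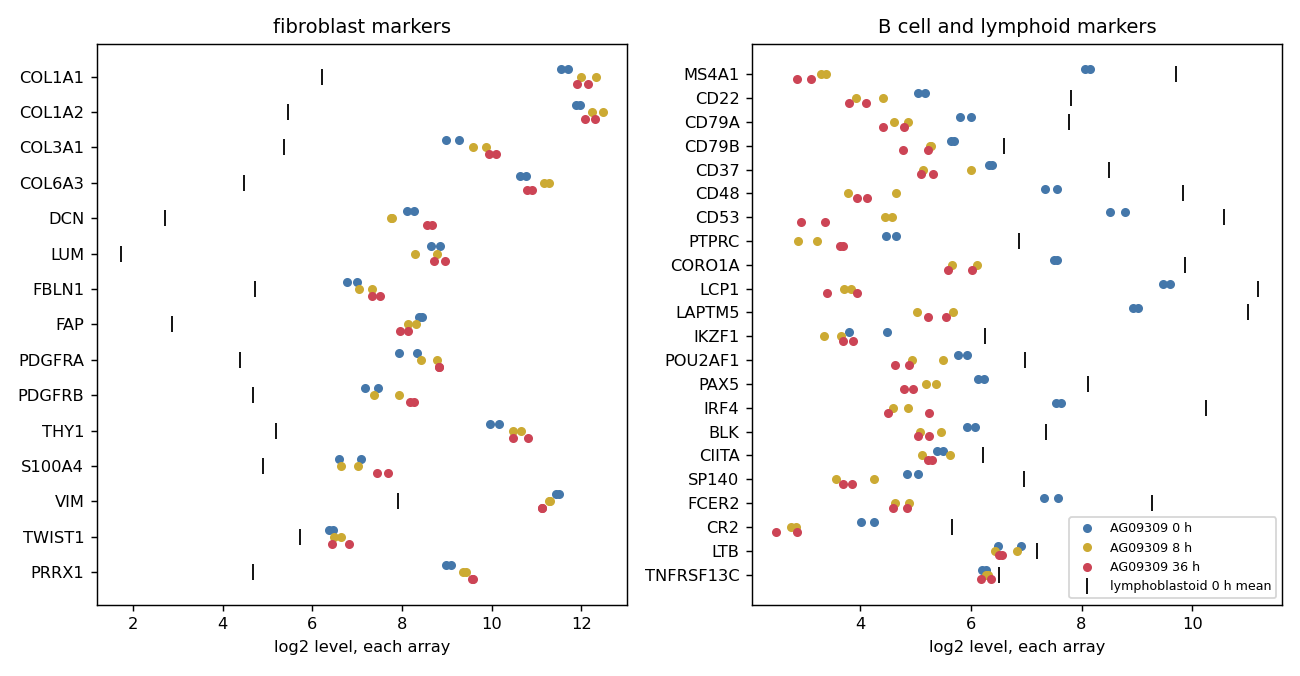
Log2 levels of 15 fibroblast markers (left) and 22 lymphoid markers (right) in each of the 6 AG09309 arrays, coloured by time, with the lymphoblastoid 0 h mean as a vertical tick. Fibroblast markers keep high levels at all times, while most lymphoid markers are raised at 0 h alone.

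More members rose than fell. By limma with Benjamini-Hochberg adjustment over all 19436 probe sets, 442 members (437 genes) were higher at 36 h than at 0 h and 56 (53 genes) were lower. Over all probe sets tested, 2.66% were called higher and 2.26% lower. Among members the shares were 5.82% and 0.738%. The median change of members was 0.16 on the log2 scale, against 0.03 over all probe sets tested. Called rises ran from 0.43 to 2.15, with a median of 0.76 and 84 over 1, and called falls from -0.55 to -3.82, with a median of -0.95 and 20 below -1. The 2 arrays at 36 h lay outside the range of the 0 h arrays for all 442 and all 56. Passing limma makes such separation likely, and its share over all probe sets was not counted, so it adds no support.

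The size of the change moved with the difference between AG09319 and the lymphoblastoid lines that defined membership. Members with a difference of 0 to 1 had a median change of 0.14, those with 1 to 2 had 0.24, those with 2 to 4 had 0.30 and those over 4 had 0.24. On the other side of the limit the median went from -0.03 down to -2.63. Between 36 h and 8 h, where the lymphoid sum was level, the medians over the same ranges of members were 0.08, 0.13, 0.15 and 0.09. The same 36 h arrays enter both sets of medians, so a shift of those arrays would move both. When each array was centred on the 704 members with a difference of at least 2, called member centring below, 59 members were higher and 284 lower, so that 17.2% of the calls were rises in place of 88.8%. Member centring lowers the change of every probe set by the same amount, and moved the median of all probe sets tested from 0.03 to -0.32 and that of all members, at 1 probe set per gene, from 0.16 to -0.19. The part of the lymphoid transcripts in the change of single members was not tested.

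**Figure D2:**
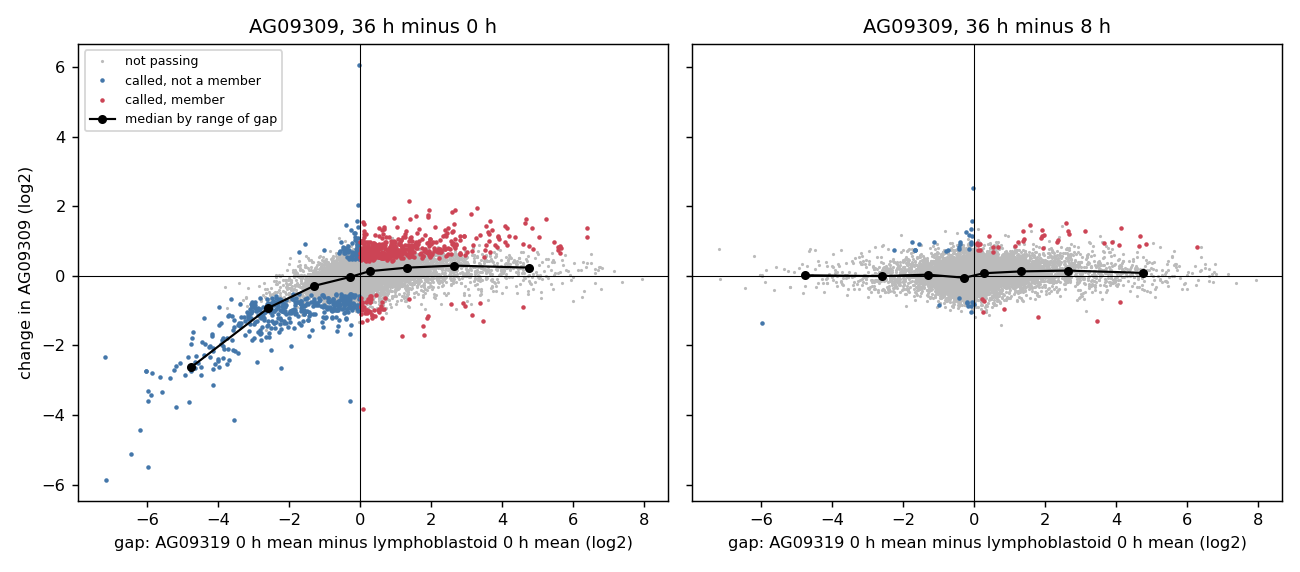
Change in AG09309 (log2) at 36 h against 0 h (left) and against 8 h (right) for each probe set, plotted over the log2 difference between AG09319 and the lymphoblastoid lines at 0 h, with members to the right of 0. Against 0 h the medians by range (black) run from -2.63 to 0.30, while against 8 h they stay between -0.05 and 0.15.

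A second comparison does not use the 0 h arrays. At 36 h against 8 h, 35 members (34 genes) were higher and 7 lower by limma, where 0.293% of all probe sets were called higher and 0.0875% lower. The 2 comparisons share the 36 h arrays, so their values are set side by side below and no overlap is read from them. DCN, the matrix proteoglycan decorin, and the transcription factor OSR2 were higher against 8 h and did not pass against 0 h. The genes higher against 8 h also included OLFML1 (1.39), the matrix protein gene MXRA5 (1.31), HSPA2 (0.97), a heat shock protein, the hypoxia factor EPAS1 (0.92) and DEPTOR (1.03), an inhibitor of mTOR. These 7 were chosen after their values were seen.

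Of the vitamin D machinery, CYP24A1 changed most. CYP24A1 read 3.08 and 3.08 at 0 h, 6.62 and 6.61 at 8 h, and 9.15 and 9.17 at 36 h. The 3 times did not overlap, and the 0 h level lay well below the AG09309 array medians of 4.98 to 5.12. Its log2 change from 0 h to 36 h was 6.08 ± 0.33 (SE), a ratio of 67.4 (limma, adjusted p = 2.25e-16), and from 8 h to 36 h it was 2.54 (adjusted p = 7.24e-05). CYP24A1 itself missed membership narrowly, with a lymphoblastoid 0 h mean of 3.25 against 3.23 in AG09319.

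VDR, the receptor, read 5.23 and 5.29 at 0 h, 5.40 and 5.50 at 8 h, and 6.12 and 6.21 at 36 h. Both 36 h arrays lay above the other 4. The change against 0 h was 0.90 ± 0.20 (limma, adjusted p = 0.0031). Against 8 h VDR differed by 0.71 (limma, adjusted p = 0.111), which did not pass. After member centring its change against 0 h was 0.55 (adjusted p = 0.211), which did not pass either. CYP27A1, a mitochondrial hydroxylase of sterols and vitamin D, rose by 0.97 (adjusted p = 0.0141), from 4.72 and 4.95 to 6.07 and 5.53. Its call ended after member centring (adjusted p = 0.145) and without 0 h replicate 1, 0 h replicate 2 or 36 h replicate 1 (0.174, 0.0531 and 0.273). Of the 5 members among the receptor and metabolism genes, 2 rose and 0 fell, with a median of 0.40. Over all members, at 1 probe set per gene, 428 of 7221 rose and 53 fell. Counts by list here and below stand beside those shares, and no set test was run.

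Of 20 members in the list of known vitamin D targets, 6 rose and 1 fell, with a median of 0.25 that became -0.10 after member centring. SLC14A1, the urea transporter of red cells and other tissues, read 5.94 and 5.44 at 0 h, 6.33 and 6.78 at 8 h, and 7.83 and 7.85 at 36 h. It had the largest rise of all members, 2.15 ± 0.29 against 0 h (limma, adjusted p = 1.81e-06), and it rose by 1.29 against 8 h (adjusted p = 0.0282). The levels of the 3 times did not overlap. EFL1, a GTPase of ribosome maturation, rose by 1.35 (adjusted p = 0.0163), most of it by 8 h, where it read 5.88 and 6.06 after 5.06 and 4.95 at 0 h. Its call ended whichever of the 4 arrays was left out, with adjusted p from 0.0597 to 0.151. SEMA6D, DPP4 and TXNIP also rose, by 1.11, 0.99 and 0.83, and the DPP4 and TXNIP calls ended after member centring (adjusted p = 0.0876 and 0.185). HBEGF, a growth factor that binds the EGF receptor, was the 1 member of the list that fell. HBEGF read 6.60 and 6.41 at 0 h, 5.96 and 5.67 at 8 h, and 5.44 and 5.15 at 36 h, a change of -1.21 ± 0.18 (adjusted p = 1.14e-05).

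**Figure D3:**
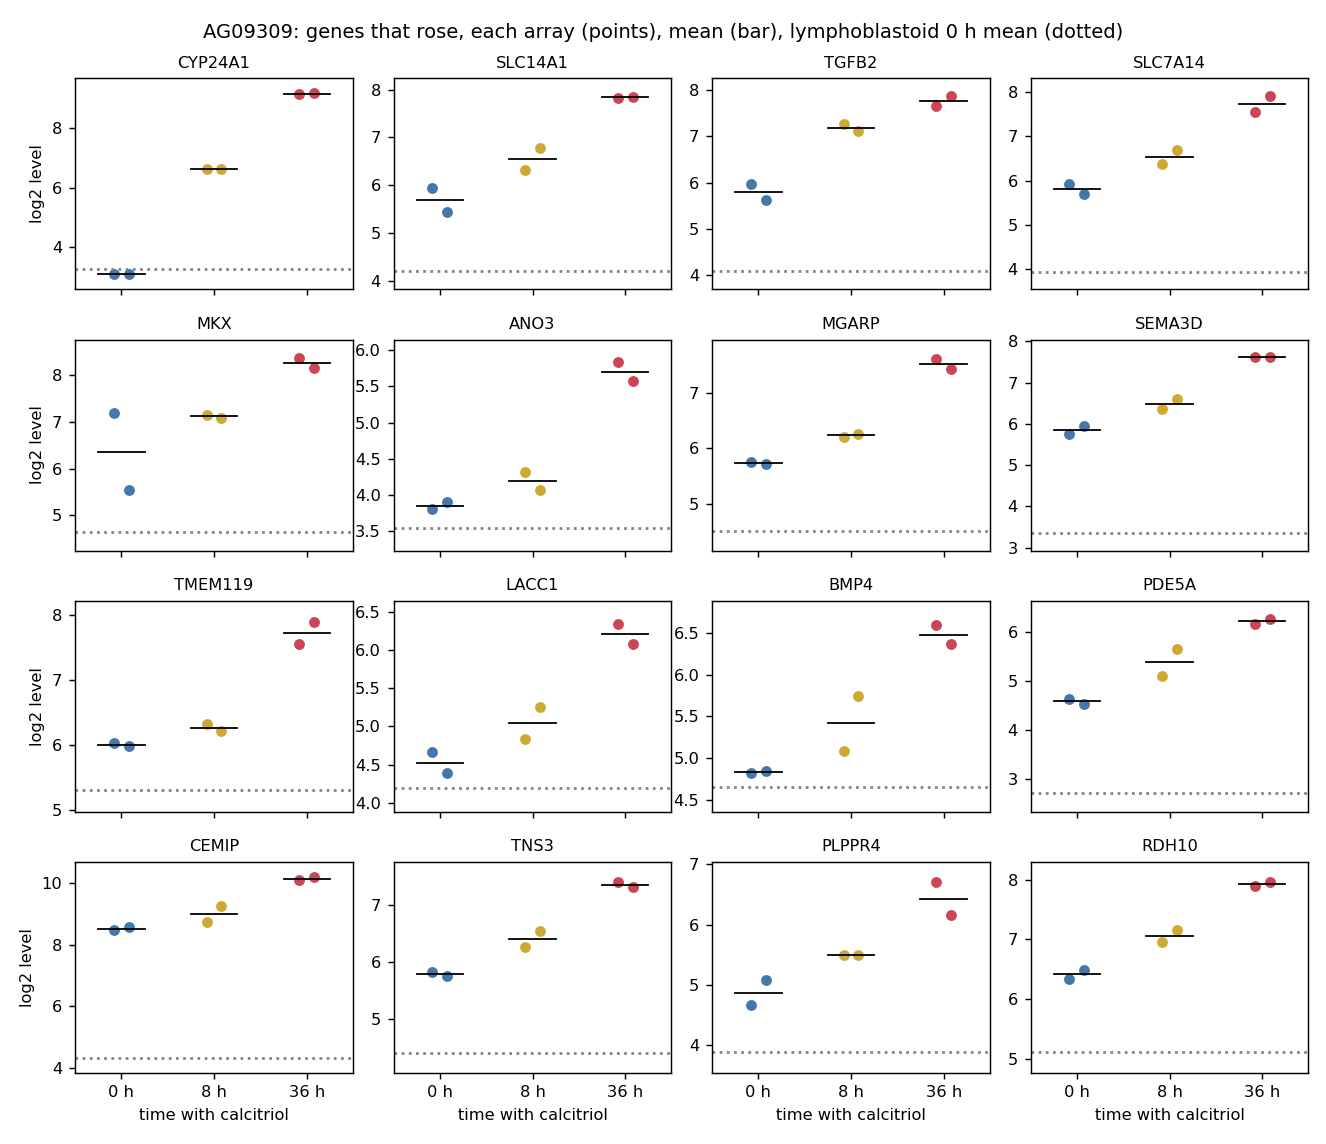
Log2 level of CYP24A1 and of the 15 members with the largest rise in each AG09309 array at 0, 8 and 36 h (points), with the mean (bar) and the lymphoblastoid 0 h mean (dotted); the vertical scale differs between panels. In every panel both 36 h points lie above both 0 h points, which for the 15 members was a condition of the choice. MKX has the widest pair at 0 h (7.18 and 5.54).

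Among the ligands of the TGF-beta family, TGFB2 and BMP4 rose. TGFB2 read 5.96 and 5.63 at 0 h, 7.27 and 7.11 at 8 h, and 7.66 and 7.86 at 36 h. The change against 0 h was 1.96 ± 0.24 (limma, adjusted p = 1.97e-07), and the difference between 36 h and 8 h, 0.57, did not pass (adjusted p = 0.404). Most of the TGFB2 difference was thus present at 8 h. BMP4, a bone morphogenetic protein, read 4.82 and 4.84 at 0 h, 5.09 and 5.74 at 8 h, and 6.59 and 6.37 at 36 h. Its rise was 1.65 ± 0.20 against 0 h (adjusted p = 3.11e-07) and 1.06 against 8 h (adjusted p = 0.0074), and the 36 h arrays stood above all others. Of the transducers, SMAD3 went from 7.09 and 6.98 to 7.97 and 7.98, a rise of 0.94 ± 0.15 (adjusted p = 2.95e-05) that missed the threshold after member centring (0.0533). PMEPA1, a TGF-beta target that restrains the SMADs, rose by 0.80, ID3, an inhibitor of helix-loop-helix factors, by 0.75, and LTBP3, which holds latent TGF-beta in the matrix, by 0.70. The calls of PMEPA1, ID3 and LTBP3 ended after member centring (0.27, 0.313 and 0.296), and that of PMEPA1 also without 0 h replicate 2 (0.064) or 36 h replicate 1 (0.0658). Of the 35 members of this list 6 rose and 0 fell, and TGFB2 and BMP4 were the 2 that rose after member centring. The list median was 0.25, and -0.11 after member centring.

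Matrix genes gave more small rises than large ones, as did all members, where 84 of the 442 called rises were over 1. Of 38 members among matrix proteins other than collagens, 10 rose and 0 fell, with a median of 0.32 that became -0.03 after member centring, where 2 rose and 2 fell. LAMA2, the laminin chain of basement membranes, read 6.48 and 6.19 at 0 h, 6.62 and 6.87 at 8 h, and 7.57 and 7.59 at 36 h. It rose by 1.24 ± 0.23 against 0 h (limma, adjusted p = 0.000473), and its 36 h arrays exceeded all others. The fibulin FBLN2 rose by 1.08 (adjusted p = 6.51e-05), the fibrillin FBN2 by 0.99 (adjusted p = 0.00176) and the elastic fibre protein MFAP4 by 0.86 (adjusted p = 0.0301). FBLN2 did not pass after member centring (0.0816), and FBN2 did not pass without 0 h replicate 2 (0.0539). MFAP4 did not pass after member centring (0.232) or in the 6 AG09309 arrays alone (0.0644), or whichever of the 4 arrays was left out (0.0889 to 0.29). EFEMP2, FBLN5, HSPG2, LAMA4, PODN and THBS2 rose by 0.61 to 0.84, and none of these 6 passed after member centring (adjusted p = 0.101 to 0.42).

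Of 22 collagen members 2 rose and 0 fell, and after member centring 0 passed by limma in either direction (1 higher and 2 lower at an unadjusted p under 0.05). COL3A1, a fibrillar collagen of skin and vessels, read 9.28 and 8.97 at 0 h, 9.60 and 9.86 at 8 h, and 9.95 and 10.10 at 36 h, a rise of 0.90 ± 0.20 (limma, adjusted p = 0.0045). The 36 h arrays lay just above the 8 h arrays, and that difference of 0.30 did not pass (adjusted p = 0.683). COL14A1, which binds to collagen fibrils, rose by 0.83 (adjusted p = 0.00287), from a low level of 4.25 and 4.42 to 5.28 and 5.05. Both calls ended after member centring (0.165 and 0.247). COL3A1 also did not pass without 0 h replicate 2 (0.137) or 36 h replicate 2 (0.0752), and COL14A1 without 0 h replicate 1 (0.073) or 36 h replicate 1 (0.0769). The collagen median was 0.25 against 0 h, -0.10 after member centring, which lowers all genes alike, and -0.13 against 8 h. Of 36 members among remodelling enzymes and their inhibitors 1 rose and 0 fell against 0 h. That share of rises was lower than over all members. After member centring 0 rose and 3 fell. Against 8 h 1 fell, TGM2, a transglutaminase that crosslinks matrix proteins, named after its values were seen. LOXL4, a lysyl oxidase that crosslinks collagen, rose 2.01-fold (adjusted p = 0.0012), which did not pass after member centring (0.0958) or without 36 h replicate 2 (0.0714). CEMIP, which is needed for hyaluronan breakdown, is on none of these lists. CEMIP read 8.48 and 8.57 at 0 h, 8.75 and 9.27 at 8 h, and 10.10 and 10.21 at 36 h, a rise of 1.63 ± 0.20 (adjusted p = 3.47e-07) with the 36 h arrays above all others. Against 8 h CEMIP rose by 1.15 (adjusted p = 0.003).

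Of 23 contractile and myofibroblast members 3 rose and 0 fell, with a median of 0.24 that became -0.11 after member centring. PALLD, the actin crosslinker palladin, rose by 1.15 ± 0.20 (limma, adjusted p = 0.000188), from 5.27 and 4.93 to 6.22 and 6.27. LMOD1, an actin filament nucleator of smooth muscle, rose from 5.26 and 5.10 to 6.26 and 6.09 (adjusted p = 0.000651). TRPC6, a cation channel, rose by 0.80 (adjusted p = 0.0114), from a low level of 3.99 and 3.90 to 4.93 and 4.56. PALLD was the 1 that also passed after member centring (adjusted p = 0.0094), against 0.0935 for LMOD1 and 0.191 for TRPC6. TRPC6 also did not pass without 0 h replicate 1 (0.0672), 0 h replicate 2 (0.13) or 36 h replicate 1 (0.216). Of 27 integrin and adhesion members 1 rose, a lower share than over all members. This was ITGA8, an integrin chain of mesenchymal cells, which rose by 0.80 (limma, adjusted p = 0.0279). Its call ended after member centring (0.151) and whichever of the 4 arrays was left out (0.083 to 0.262). TNS3, a tensin that links integrins to actin, is on neither list and read 5.82 and 5.75 at 0 h, 6.27 and 6.54 at 8 h, and 7.41 and 7.32 at 36 h. Its rise was 1.57 ± 0.22 against 0 h (adjusted p = 2.83e-06) and 0.96 against 8 h (adjusted p = 0.0288), with no overlap between the 3 times.

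After member centring, guidance genes and the known vitamin D targets had the most rises of any list, 4 each. These lists hold 23 and 20 members and share SEMA6D, and lists differ in size. Over all members, at 1 probe set per gene, 58 of 7221 rose after member centring. Of 23 guidance members 4 rose and 0 fell, and the median was 0.34, which became -0.02 after member centring. SEMA3D, a secreted semaphorin, read 5.77 and 5.95 at 0 h, 6.36 and 6.62 at 8 h, and 7.63 and 7.63 at 36 h. It rose by 1.77 ± 0.19 against 0 h (limma, adjusted p = 2.48e-08) and by 1.14 against 8 h (adjusted p = 0.0021), with no overlap between times. ROBO2, a receptor for SLIT proteins, read 6.34 and 6.38 at 0 h, 6.60 and 6.99 at 8 h, and 7.72 and 7.62 at 36 h, a rise of 1.31 ± 0.21 (adjusted p = 5.14e-05). EPHA4, an ephrin receptor, rose by 1.31 ± 0.23 (adjusted p = 0.000176), and it had reached 7.11 and 7.18 by 8 h from 6.55 and 6.09. SEMA6D, a membrane semaphorin, rose from a low level, 3.88 and 3.94, to 4.89 and 5.15. The 4 genes also passed whichever of the 4 arrays was left out, and after member centring their changes were 1.41, 0.96, 0.95 and 0.76.

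Of 31 members among channels and transporters 6 rose and 0 fell, with a median of 0.37 that became 0.01 after member centring. Beside SLC14A1 these were the glucose transporter SLC2A12 (1.06), the potassium channel subunit KCNE4 (0.98), the glutamate transporter SLC1A1 (0.89), the calcium channel CACNA1C (0.58) and the taurine transporter SLC6A6 (0.57). SLC2A12 rose from a low level, 3.97 and 3.68, to 4.61 and 5.18. Only SLC14A1 of the 6 passed after member centring. SLC2A12 also did not pass without 0 h replicate 2 (0.0999) or 36 h replicate 2 (0.158), and SLC1A1 without 0 h replicate 1 (0.058), 0 h replicate 2 (0.189) or 36 h replicate 1 (0.17). KCNE4 did not pass whichever of the 4 arrays was left out (0.0713 to 0.184). SLC7A14 and ANO3, of the families of amino acid transporters and anoctamins, are not on that list. SLC7A14 read 5.93 and 5.70 at 0 h, 6.37 and 6.69 at 8 h, and 7.54 and 7.91 at 36 h, a rise of 1.91 ± 0.21 (limma, adjusted p = 1.89e-08), and its other probe set rose by 1.69. ANO3 read 3.80 and 3.91 at 0 h, 4.32 and 4.06 at 8 h, and 5.83 and 5.57 at 36 h, and rose by 1.85 ± 0.30 (adjusted p = 5.15e-05). Both were highest at 36 h with no overlap, and against 8 h they rose by 1.19 and 1.51 (adjusted p = 0.0027 and 0.0108).

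Of 18 retinoid and steroid members AKR1C3 and RARG rose. AKR1C3, an enzyme that reduces steroids and prostaglandins, rose by 1.18 ± 0.28 (limma, adjusted p = 0.00786), from 5.16 and 5.63 to 6.62 and 6.53. RARG, a retinoic acid receptor, rose by 0.97 ± 0.17 (adjusted p = 0.000131). After member centring their adjusted p was 0.0788 and 0.0823, and AKR1C3 also did not pass without 0 h replicate 1 (0.184), 36 h replicate 1 (0.0779) or 36 h replicate 2 (0.0522). RDH10, which oxidises retinol on the way to retinoic acid, is not on that list but is among the 15 largest rises. RDH10 read 6.34 and 6.49 at 0 h, 6.96 and 7.16 at 8 h, and 7.90 and 7.96 at 36 h, a rise of 1.51 ± 0.20 (adjusted p = 1.42e-06), and its 3 times did not overlap.

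Among 22 members for cytokines and related mediators 3 rose and 1 fell. PTGIS, which makes prostacyclin, went from 5.49 and 6.04 at 0 h through 5.81 and 6.50 at 8 h to 7.12 and 7.22 at 36 h, a rise of 1.41 ± 0.25 (limma, adjusted p = 0.000183). TNFRSF11B, the decoy receptor osteoprotegerin, rose by 1.13 (adjusted p = 0.00497) and IL6 by 1.03 (adjusted p = 0.0155). The chemokine CXCL8 fell by 0.67 (adjusted p = 0.016), from 4.80 and 5.17 to 4.20 and 4.43. IL6 did not pass after member centring (0.0724) or whichever of the 4 arrays was left out (0.0866 to 0.126). TNFRSF11B did not pass without 0 h replicate 2 (0.0999) or 36 h replicate 1 (0.121), nor CXCL8 without 0 h replicate 2 (0.347) or 36 h replicate 1 (0.199) or in the 4 arrays alone (0.0576).

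Of 33 members for growth factors and their receptors, PDGFRB, VEGFA and PDGFD rose, by 0.91, 0.84 and 0.76, and HBEGF fell. None of these rises passed after member centring (adjusted p = 0.133, 0.196 and 0.263). PDGFD read 3.27 and 3.31 at 0 h and 4.10 and 3.99 at 36 h, below the AG09309 array medians of 4.98 to 5.12. PDGFRB did not pass without 0 h replicate 1 (0.0891), VEGFA whichever of the 4 arrays was left out (0.0506 to 0.177), and PDGFD without 0 h replicate 1 (0.0912), 0 h replicate 2 (0.071) or 36 h replicate 1 (0.105). ADM, the vasodilator adrenomedullin, is on the hypoxia list, where 2 of 15 members rose. ADM read 8.61 and 8.20 at 0 h, 8.62 and 9.32 at 8 h, and 9.70 and 10.002 at 36 h, a rise of 1.45 ± 0.20 (limma, adjusted p = 4.59e-06). The 36 h arrays were the highest, and the difference from 8 h was 0.88 (adjusted p = 0.0346). IGFBP4 was the 1 of 5 insulin-like growth factor binding proteins to rise, by 0.97 (adjusted p = 0.000377), which did not pass after member centring (0.0953). Of 15 complement members C1S, a protease of the classical pathway, rose by 0.75, and of 18 members for stress and nutrient sensing SESN3, a sestrin, and DDIT3, the stress factor CHOP, rose by 1.15 and 0.91. C1S and DDIT3 did not pass after member centring (0.219 and 0.178) or whichever of the 4 arrays was left out (0.0746 to 0.24 and 0.0825 to 0.153), nor SESN3 without 0 h replicate 2 (0.135) or 36 h replicate 1 (0.081). By limma 0 of 22 Wnt members, 0 of 5 interferon-stimulated members and 0 of 5 cholesterol and fatty acid members passed. At an unadjusted p under 0.05 these counts were 7, 1 and 0, and with the 6 AG09309 arrays alone 1, 0 and 0 passed.

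The remaining large rises were genes of several roles. MKX, a homeobox factor of tendon cells, read 7.18 and 5.54 at 0 h, 7.15 and 7.10 at 8 h, and 8.38 and 8.15 at 36 h. Its 0 h arrays lay far apart, and one of them exceeded both 8 h arrays. The change was 1.91 ± 0.29 (limma, adjusted p = 2.43e-05), and without 0 h replicate 2 it was 1.08 (adjusted p = 0.0222). MEIS1, a homeobox cofactor and the 1 of 15 positional factors that passed, rose by 1.13 (adjusted p = 0.00271), which did not pass without 0 h replicate 2 (0.107). TMEM119, a membrane protein of osteoblasts and microglia, read 6.03 and 5.99 at 0 h, 6.33 and 6.21 at 8 h, and 7.55 and 7.90 at 36 h, so that most of its rise of 1.72 ± 0.21 (adjusted p = 3.2e-07) came after 8 h (1.46, adjusted p = 0.000223). MGARP, a mitochondrial protein, rose by 1.78 ± 0.26 (adjusted p = 1.05e-05), again with 1.29 of it after 8 h (adjusted p = 0.0133). PDE5A, which degrades cyclic GMP, read 4.64 and 4.54 at 0 h, 5.11 and 5.66 at 8 h, and 6.18 and 6.27 at 36 h, a rise of 1.64 ± 0.27 (adjusted p = 8.57e-05). LACC1 and PLPPR4 rose by 1.68 and 1.56. The 15 largest rises all passed after member centring. They were chosen for their size in these same arrays, which makes passing likely, so it adds no support.

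**Figure D4:**
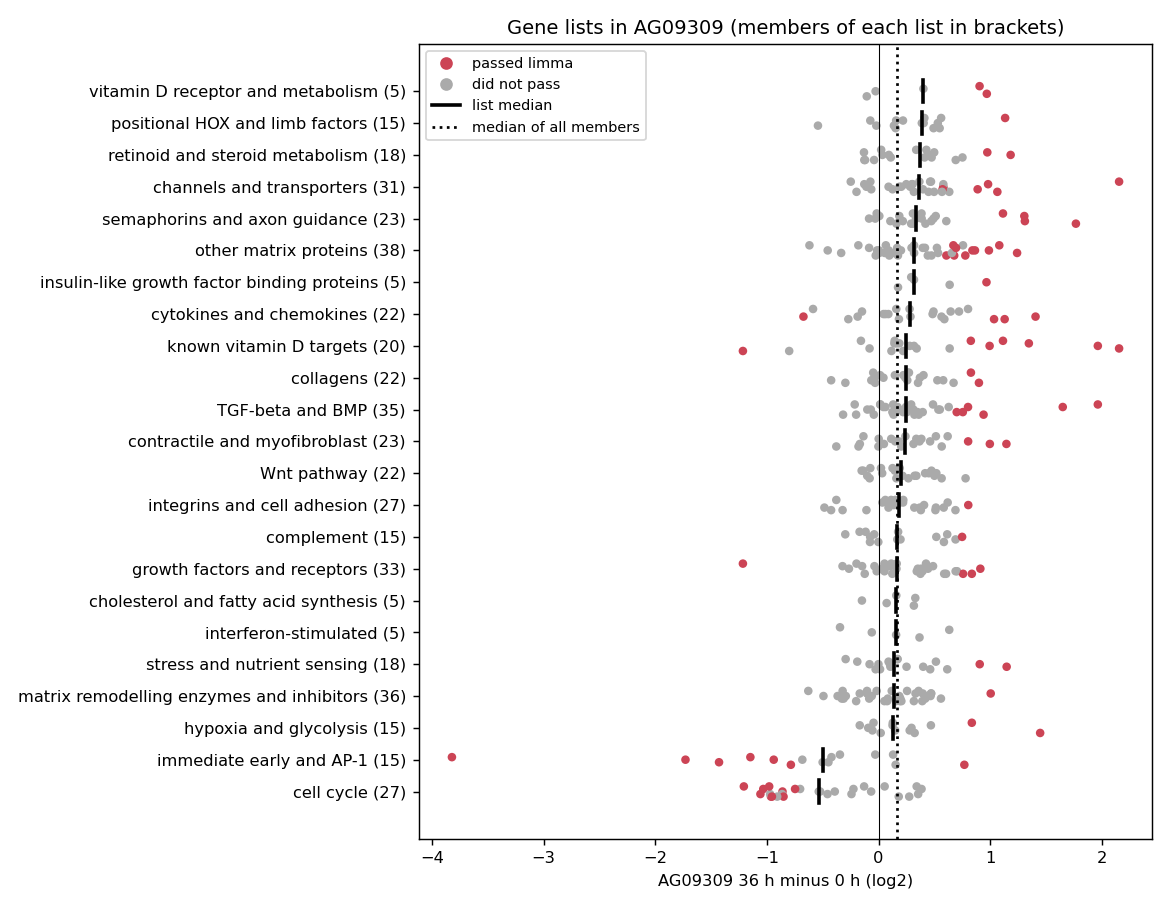
Change of the members of 23 gene lists in AG09309 at 36 h against 0 h (log2), one point per gene, red where limma passed, with the list median (bar) and the median of all members (dotted, 0.16). Medians of 21 lists lie above 0 and those of the cell cycle and immediate early lists lie below; member centring lowers every point and median alike.

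Among the falls were immediate early genes, factors that cells switch on within minutes of a stimulus. Of 15 members 6 fell and 1 rose. After member centring, which lowers every change alike, the counts were 10 and 0. FOS, a subunit of AP-1, read 10.06 and 9.69 at 0 h, 5.53 and 5.96 at 8 h, and 6.06 and 6.04 at 36 h. FOS fell by 3.82 ± 0.20, 14.1-fold (limma, adjusted p = 3.98e-17), the largest fall of any member. Its 0 h level stood above the lymphoblastoid mean of 5.44 and above 5.45 and 5.62 in untreated AG09319. EGR1, a zinc finger factor, read 10.32 and 10.24 at 0 h, 7.83 and 7.90 at 8 h, and 8.77 and 8.33 at 36 h, a fall of 1.73 ± 0.17 (adjusted p = 1.6e-09). JUN, the partner of FOS, read 9.08 and 8.85 at 0 h, 7.51 and 7.78 at 8 h, and 7.81 and 7.82 at 36 h, and fell by 1.15 ± 0.20 (adjusted p = 0.000169). The drop lay before 8 h in all 3, and from 8 h to 36 h they differed by 0.30, 0.69 and 0.17, none past the threshold. KLF4, KLF6 and DUSP1 fell by 1.43, 0.94 and 0.79, while FOSL2, another AP-1 subunit, rose by 0.77, which did not pass after member centring (adjusted p = 0.233). The list median was -0.50 against 0 h, -0.57 for 8 h against 0 h and 0.06 for 36 h against 8 h, where the first pair share the 0 h arrays.

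EGR1 is shown because its upstream sequence holds the motif for which such genes are known, the CArG box bound by serum response factor. The 250 bases before its RefSeq start, on the plus strand of GRCh38.p14 at chr5:138465229-138465478, follow with the 2 CArG boxes in capitals.
EGR1 promoter: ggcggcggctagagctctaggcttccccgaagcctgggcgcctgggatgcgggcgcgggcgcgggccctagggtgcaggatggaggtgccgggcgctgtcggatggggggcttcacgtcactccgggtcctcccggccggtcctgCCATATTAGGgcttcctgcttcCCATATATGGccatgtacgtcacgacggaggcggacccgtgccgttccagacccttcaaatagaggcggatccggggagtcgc

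Over windows from 250 bases before to 50 after the start, the CArG box was found on either strand in 454 of 35116 RefSeq promoters, 1.29%. Of the promoters of the 6 immediate early genes that fell, EGR1's was the 1 that held it in this window. A match is a description of the sequence and does not show that it acts here.

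Cell cycle genes also fell, with 9 of 27 members lower, 0 higher and a median of -0.54. CDC6, which licenses replication origins, read 7.01 and 6.93 at 0 h, 6.62 and 6.85 at 8 h, and 5.78 and 5.75 at 36 h, a fall of 1.21 ± 0.28 (limma, adjusted p = 0.0055). CCNA2, cyclin A2, went from 7.78 and 7.84 through 7.37 and 7.35 to 6.83 and 6.67, and fell by 1.06 ± 0.23 (adjusted p = 0.0027). CCNB2, cyclin B2, read 7.94 and 7.73 at 0 h, 7.09 and 7.38 at 8 h, and 6.95 and 6.64 at 36 h, a fall of 1.03 ± 0.26 (adjusted p = 0.013). In these 3 genes the 36 h arrays were below all others. RRM2, a subunit of ribonucleotide reductase, fell by 0.98, and AURKA, TOP2A, CCNB1, CDCA8 and PCNA fell by 0.75 to 0.96. The lymphoblastoid lines expressed these genes too, with a median level of 7.25 on the log2 scale against 7.51 in AG09309 at 0 h, so the member rule separates the fibroblasts from lymphoid cells less for this list than for matrix genes. Against 8 h, where lymphoid markers were level, 0 of the 27 passed by limma and the median was -0.38, with 12 lower at an unadjusted p under 0.05 and 1 passing with the 6 AG09309 arrays alone. Member centring, which lowers every change alike, raised the count of falls to 17. Over all members, at 1 probe set per gene, it raised that count from 53 to 273. Without 36 h replicate 2, CDC6, CCNA2, CCNB2 and RRM2 did not pass (adjusted p = 0.0545, 0.054, 0.177 and 0.126). CDC6, CCNB2 and RRM2 also did not pass without 0 h replicate 1 (0.0696, 0.155 and 0.085), nor CCNB2 without 0 h replicate 2 (0.0558).

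**Figure D5:**
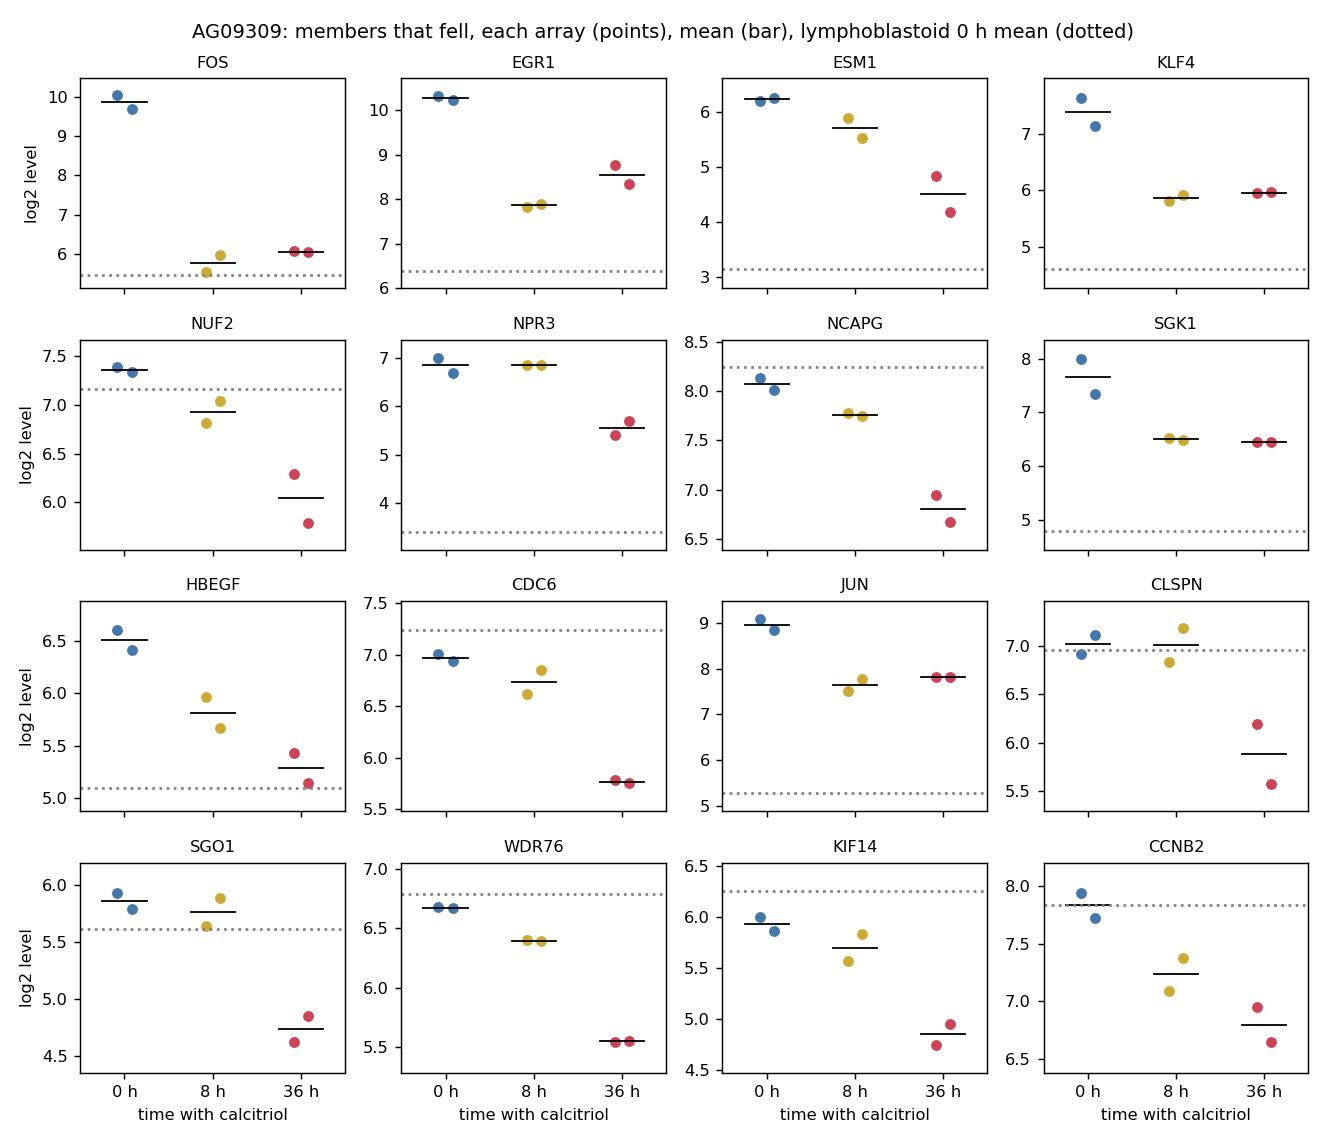
Log2 level of the 15 members with the largest fall, and of CCNB2, in each AG09309 array at 0, 8 and 36 h (points), with the mean (bar) and the lymphoblastoid 0 h mean (dotted); the vertical scale differs between panels. FOS, EGR1, KLF4, SGK1 and JUN are low from 8 h on, while the 36 h points of NPR3, CLSPN and SGO1 lie below the other 4 (against 8 h NPR3 passed and CLSPN and SGO1 did not).

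CCNB2 is shown because its upstream sequence repeats the CCAAT box, an element common in promoters of mitotic genes. The 250 bases before its RefSeq start, on the plus strand of GRCh38.p14 at chr15:59104896-59105145, follow with the 4 CCAAT boxes in capitals.
CCNB2 promoter: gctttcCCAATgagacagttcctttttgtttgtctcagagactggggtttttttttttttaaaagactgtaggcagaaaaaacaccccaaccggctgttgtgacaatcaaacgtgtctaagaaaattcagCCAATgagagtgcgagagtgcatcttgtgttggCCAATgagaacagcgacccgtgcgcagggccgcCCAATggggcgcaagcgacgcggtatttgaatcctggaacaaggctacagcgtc

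The 10 promoters of 8 of the 9 cell cycle genes that fell all held CCAAT on either strand, against 34.6% of the 35116 RefSeq promoters. The promoters of members that rose held it in 30.0% of 566. Promoters of cell cycle members that did not fall were not counted apart, so these shares do not tie the motif to the fall. A vitamin D element of 2 half-sites spaced by NNN (each half-site AGGTCA or AGTTCA or GGTTCA or GGGTCA, on both strands) was found in 26 of all promoters (0.074%). It was found in 1 of the 566 promoters of members that rose, that of SYTL5, and in 0 of the 23 promoters of 13 of the 15 largest rises. These windows are short, and a missing match says only that the letters are not in them.

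Other members among the 15 largest falls are on no list used here. NUF2, a kinetochore subunit, fell by 1.32, NCAPG, a condensin subunit, by 1.27, SGO1, which protects cohesion, by 1.13, WDR76 by 1.12 and the kinesin KIF14 by 1.08. NCAPG and WDR76 passed whichever of the 4 arrays was left out. SGO1 and KIF14 passed in none of those fits (adjusted p = 0.0836 to 0.192 and 0.126 to 0.24) nor after quantile normalization (0.0538 and 0.0849), and NUF2 did not without 36 h replicate 2 (0.213), 0 h replicate 1 (0.11) or 0 h replicate 2 (0.0954). CLSPN, the checkpoint adaptor claspin, fell by 1.14 (limma, adjusted p = 0.0469), its other probe set changed by -0.74 and did not pass (adjusted p = 0.083), and it did not pass whichever of the 4 arrays was left out (0.0538 to 0.423). CLSPN and KIF14 also missed the threshold with arrays centred on their median (0.0635 and 0.0593) and over all probe sets of the table (0.0684 and 0.061). NUF2, NCAPG, SGO1, WDR76, KIF14 and CLSPN were also expressed in the lymphoblastoid lines, with means from 5.61 (SGO1) to 8.24 (NCAPG). Their AG09319 means were higher by only 0.03 (KIF14) to 0.42 (CLSPN). The member rule thus separates the fibroblasts from lymphoid cells little here. Against 8 h none of them passed (limma, adjusted p = 0.0716 to 0.342).

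The other large falls were secreted, membrane and signalling proteins. ESM1, the proteoglycan endocan, read 6.20 and 6.25 at 0 h, 5.87 and 5.53 at 8 h, and 4.84 and 4.19 at 36 h. ESM1 fell by 1.71 ± 0.27 against 0 h (limma, adjusted p = 3.88e-05) and by 1.19 against 8 h (adjusted p = 0.0314), with no overlap between times. NPR3, the clearance receptor for natriuretic peptides, read 6.99 and 6.69 at 0 h, 6.86 and 6.84 at 8 h, and 5.40 and 5.70 at 36 h. NPR3 was thus level to 8 h and lower at 36 h, by 1.29 ± 0.26 against 0 h (adjusted p = 0.00124) and by 1.30 against 8 h (adjusted p = 0.0122), and its other probe set fell by 1.11 against 0 h and differed by -1.01 against 8 h, which did not pass (adjusted p = 0.083). The lymphoblastoid means of ESM1 and NPR3 were 3.15 and 3.41, below every AG09309 array. The NPR3 call against 0 h narrowly missed the threshold without 0 h replicate 1 (0.0508). SGK1, a kinase induced by serum and steroids, read 7.99 and 7.34 at 0 h, 6.52 and 6.48 at 8 h, and 6.45 and 6.45 at 36 h, a fall of 1.22 ± 0.18 (adjusted p = 1.51e-05) that lay before 8 h.

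AG09319 gives the same contrast in another fibroblast line, described without a test because its 0 h arrays chose the members. The titles of the 2 lines are written in different styles, so line and any batch behind the styles cannot be told apart. AG09319 shares a dated style with GM12878, and AG09309 an undated style with GM07019, GM07348 and GM10854. The difference that defines members therefore also mixes line with any such batch. Its CYP24A1 rose from 3.59 and 2.86 to 8.52 and 8.41, and its SLC14A1 and TGFB2 means differed by 0.53 and 0.61. The 15 largest rises of AG09309 all had a higher mean at 36 h in AG09319, with LACC1 (1.37), SEMA3D (1.47) and BMP4 (1.22) close to AG09309 and ANO3 (0.02) and SLC7A14 (0.23) far below it. Of the 15 largest falls, 10 had a lower mean at 36 h in AG09319. The cell cycle members had a median of -1.10 there, with CDC6 at -2.13. Over all members the AG09319 median was -0.01.

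The counts depended on the arrays in the fit. Leaving out 1 of the 4 arrays gave 130 to 209 rises and 18 to 36 falls, with 0 h replicate 1, 0 h replicate 2, 36 h replicate 1 and 36 h replicate 2 giving 167, 130, 209 and 170 rises. Without the 3 arrays of AG09319, HepG2 and K562 set aside, which enter through the shared spread, there were 785 rises and 145 falls. In the comparison with 8 h, leaving out 8 h replicate 1 or 36 h replicate 1 left 2 and 3 calls.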

How the data were processed

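Per the labels' protocols, 100 ng of total RNA per sample, extracted with an Exiqon kit, was labelled with biotin by the Affymetrix WT protocol. The authors deposited log2 values made with RMA in Affymetrix Expression Console 1.0 per the submitters' processing notes. Whether 1 RMA run covered all arrays is not stated. Of 33297 probe sets, 21214 are in the platform annotation used and 19460 have 1 gene symbol (1754 have several), of which 19429 matched a RefSeq gene ID and 24 (sex-linked) were left out.

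The 54 arrays were fitted as 27 groups with limma 3.58.1 in R 4.3.3 (27 residual and 8.88 prior degrees of freedom), two-sided, with Benjamini-Hochberg adjustment over 19436 probe sets and a threshold of 0.05, with no filter on low values. On simulated data, the fit for AG09309 at 36 h against 0 h recovered 79% of changes of 1 log2 unit. For changes of 2 it recovered 100%, and it called 10 of 19236 unchanged probe sets. The simulated noise was independent and of equal spread in every group, with no array-wide shift and no fall of lymphoid transcripts as a set. These rates may therefore not hold for the real arrays. Replicate numbers did not pair the samples (correlations of their deviations -0.22, 0.10 and -0.06).

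Named were CYP24A1, SLC14A1, TGFB2 and VDR, the 15 largest rises and 15 largest falls among called members with both 36 h arrays outside the 0 h range, and up to 4 called members for each of 23 gene lists, with the highest of several probe sets per gene; further list members are given by their change alone. Members, markers and lists were chosen with earlier results of these data known. Promoters are from RefSeq GRCh38.p14, with an entry for 342 of the 428 risen members. Alternatives were other scalings, filters, fits, member limits and arrays left out. Tables used Python 3.11.15, numpy 2.4.6, pandas 2.3.3 and matplotlib 3.10.9.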

Additional observations from a re-analysis of the deposited data

Results flagged for a closer look

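A few named members, 6 in all, moved in opposite directions in the 2 fibroblast lines, with both 36 h arrays outside the 0 h range in each line and the difference itself not tested. EGR1 changed by -1.73 in AG09309 and 0.58 in AG09319, FOS by -3.82 and 0.33, KLF4 by -1.43 and 0.42, and SGK1 by -1.22 and 1.08. In AG09319, FOS read 5.45 and 5.62 at 0 h and 6.10 and 5.63 at 36 h, near the 36 h levels of AG09309. NPR3 changed by -1.29 and 0.95. PMEPA1 changed by 0.80 and -0.32.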

How the results depend on the processing

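Of the 71 named genes, 47 passed after member centring and 38 passed whichever of the 4 arrays was left out; none changed direction among the alternatives. Member centring lowers every change alike, so it made the named falls larger, and the named genes whose calls it ended were all rises. A filter on low values kept 57 of the 71 named genes, all of them still called. Against 0 h (498 changed, 442 higher, 56 lower), member centring gave 59 higher and 284 lower. The 6 AG09309 arrays alone gave 119 lower and the 4 arrays alone 122. Without the 3 arrays set aside the fit gave 930 changed, 785 higher and 145 lower. Members lower by at least 1 gave 227, 214 and 13, and by at least 2 gave 109, 102 and 7. Leaving out 1 array of AG09309 gave 158 to 494 changed, 130 to 440 higher and 18 to 54 lower, the highest of each without an 8 h array. With the replicate number as a block, 499 changed (434 higher, 65 lower), and quantile normalization (558 and 84) kept both counts within 1.5 times. Against 8 h the main counts were 42, 35 and 7, and the alternatives were added after the data were seen. Quantile normalization gave 84 changed and 32 lower, and member centring 21, 8 and 13. A test over every probe set deposited gave 79 changed and 70 higher. The fit without the 3 arrays set aside gave 209, 157 and 52 against 8 h. Leaving out 1 array there gave 2 to 42 changed, 2 to 36 higher and 0 to 6 lower, and the block gave 61 (52 and 9). The cause of these moves was not tested, and the narrower member limits count fewer probe sets of the same fit.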
